A study of Mus musculus with 8 samples.

Results

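The transcripts of 10 enzymes that remove superoxide and peroxides were followed in the livers of mice whose hepatocytes had or had not been exposed to Cre recombinase against Smoothened (Smo), the obligatory signal transducer of the Hedgehog pathway. The 10 genes are the superoxide dismutases Sod1 and Sod2, the catalase Cat, the glutathione peroxidases Gpx1, Gpx3 and Gpx4, and the peroxiredoxins Prdx1, Prdx3, Prdx5 and Prdx6. They were taken by symbol, as a named set of antioxidant enzymes and not by a threshold on their values, from the 25239 gene symbols counted in each liver, and all 10 of 10 were present and passed the filter on low counts. All are annotated as protein-coding, on 9 chromosomes, and Prdx3 and Prdx5 share chromosome 19.

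Bulk RNA-Seq was available for 4 control and 4 Smo-KO livers, 1 library per liver. All 8 mice were adult males homozygous for a floxed Smo allele (Smo tm2Amc/J) on a C57Bl6/J background, and all were fed a choline-deficient, amino acid-defined, high-fat diet (CDA-HFD), which induces steatohepatitis, for 6 weeks. Each received an adeno-associated virus by tail vein 1 week before sacrifice: AAV8-TBG-Luciferase in control mice, whose label gives the genotype as WT, and AAV8-TBG-Cre in Smo-KO mice. The control mice therefore carried the floxed alleles, the diet and a vector as well. Expression of Cre depends on TBG, a hepatocyte promoter, whereas the RNA came from whole liver and so also holds transcripts of cells that were not targeted. The number of reads on genes was 8203299 in the shallowest and 9999732 in the deepest library, and 3 reads are worth at most 0.366 CPM (read counts relative to library size, with libraries scaled by edgeR's TMM method). In bulk tissue, fewer cells of a type and less RNA per cell cannot be told apart.

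Superoxide, which leaks from the mitochondrial respiratory chain and is made by oxidases, is turned into hydrogen peroxide by superoxide dismutases, Sod1 mainly in the cytosol and Sod2 in the mitochondrial matrix. Hydrogen peroxide is then removed by catalase in peroxisomes, by glutathione peroxidases at the expense of glutathione, and by peroxiredoxins, most of which are recharged by thioredoxin. The liver, with its many peroxisomes and mitochondria, is rich in these enzymes, and fat-laden hepatocytes are known to be exposed to lipid peroxides, the substrate of Gpx4.

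The glutathione peroxidases are shown first by sequence, because all 3 carry the same feature that sets them apart from the other 7 enzymes: their active-site residue is selenocysteine, encoded by a UGA codon that elsewhere ends translation. The stretches below are coding sequence of the annotated transcripts (GENCODE M21, build GRCm38, plus strand), 45 bases each, with the selenocysteine codon in capitals. For each gene the transcript with the longest coding sequence was taken. Codon and exon numbers hold for that transcript, and which transcripts these livers express was not tested.
Gpx1, codon 47 of 201, in exon 1 of 2, codon at chr9:108339451-108339453: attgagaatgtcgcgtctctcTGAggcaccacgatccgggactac
Gpx3, codon 73 of 226, in exon 2 of 5, codon at chr11:54907256-54907258: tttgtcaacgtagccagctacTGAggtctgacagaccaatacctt
Gpx4, codon 129 of 253, in exon 3 of 7, codon at chr10:80054737-80054739: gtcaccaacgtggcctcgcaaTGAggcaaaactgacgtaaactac
In all 3 the selenocysteine codon is followed by a glycine codon, ggc in Gpx1 and Gpx4 and ggt in Gpx3.

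Smo itself was measured at 8.17 to 8.74 CPM in the controls, and at 5.67 CPM in Smo-KO mouse 1 and 3.93 to 4.37 CPM in Smo-KO mice 2 to 4, so that the groups did not overlap and mouse 1 kept the most. Its log2 difference was -0.88, with a standard error of 0.16, an adjusted p of 0.0957 by edgeR and 0.00613 by DESeq2 (Wald test), and a range of 0.00613 to 0.219 over the alternatives. The tissue was checked against 8 hepatocyte markers, all of which passed the filter. Alb averaged 16570 ± 973 CPM (SD, n = 4) in control and 15338 ± 897 CPM in Smo-KO livers. The 8 together, led by Alb, summed to 31995 and 31686 CPM. By log2 fold change 4 of the 8 were above 0 and 4 below, and 0 had an unadjusted p under 0.05 in edgeR's test, beside 13.8% of all genes. The largest difference was in Tat, named after its values were seen, at 981 ± 243 and 637 ± 303 CPM (log2 difference -0.62, adjusted p = 0.397).

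Together the 10 enzymes took 0.750% to 0.823% of the reads on genes. Their levels summed to 8132, 7498, 7474 and 7465 CPM in controls 1 to 4 and to 7384, 8347, 8137 and 8289 CPM in Smo-KO mice 1 to 4. Smo-KO mice 2 to 4 were above every control, and Smo-KO mouse 1 was below every control. The group means, 7642 ± 327 and 8039 ± 446 CPM (SD, n = 4 each), are given without a test, and the groups overlapped.

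Compared per length, so that genes can be set against each other, the most abundant of the 10 transcripts was Gpx1, with 1417 ± 80.8 CPM per kilobase of annotated exon (SD, n = 4) in control livers. Ranks were taken by the level averaged over the control and Smo-KO means, not by the control level alone. Gpx1, the main cytosolic and mitochondrial glutathione peroxidase, stood at rank 21 of 12810 genes with a length. Cat followed at 781 ± 64.3 CPM per kilobase (rank 51), then Gpx4 at 394 ± 22.6 (rank 101) and the cytosolic peroxiredoxin Prdx1 at 337 ± 15.2 (rank 155). Sod1 at 141 ± 16.4, Prdx5 at 135 ± 10.9 and Prdx6 at 129 ± 13.4 CPM per kilobase differed from each other by less than their spread over mice, and the mitochondrial Prdx3 stood next at 113 ± 6.36. Sod2 at 19.5 ± 0.746 and Gpx3, which is known as the secreted plasma enzyme made largely in kidney, at 14.2 ± 1.08 CPM per kilobase were the lowest. The place of Sod1 depends on which exons count as its length: per kilobase of the longest coding transcript in the basic annotation, which is 641 bases against 3970 for all its exons, the level of Sod1 was 871 ± 102, second after Gpx1 at 1904 ± 109 and level with Cat at 781 ± 64.3, within their spread. The other 9 genes kept their order among themselves except that Prdx6 (260 ± 27.1) then stood before Prdx5 (229 ± 18.4). The low place of Sod2 also rests on its length, which is long by both measures (10008 and 5861 bases). In CPM not divided by length, Sod2 (195 ± 7.46) was above Prdx3 (167 ± 9.40) in control livers.

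**Figure D1:**
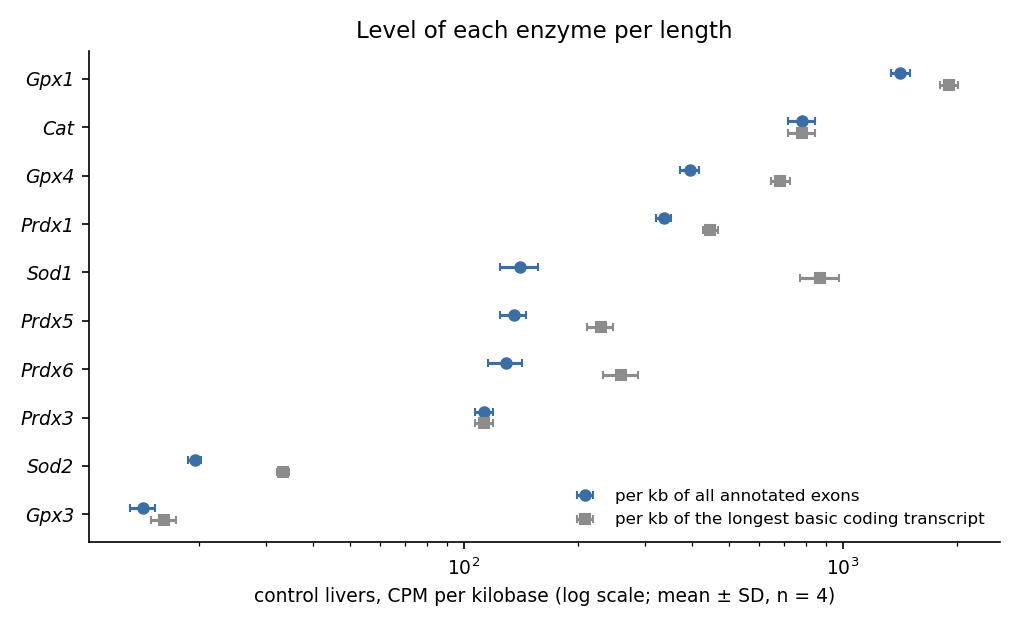
Level of each of the 10 enzymes in control livers, in CPM per kilobase on a log axis, as mean with SD over 4 livers; blue circles divide by all annotated exons and grey squares by the longest basic coding transcript. Gpx1 is highest and Gpx3 lowest by both lengths, and Sod1 moves most, from 141 to 871.

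The comparison of 4 Smo-KO with 4 control livers asks whether removal of Smo from hepatocytes changed the transcripts of these enzymes. By edgeR's test with Benjamini-Hochberg adjustment over all 12977 genes tested, 0 of the 10 enzymes had an adjusted p under 0.05, and 0% of all genes did. DESeq2 gave 0 of 10 as well, against 1.36% of all genes. At an unadjusted p under 0.05, edgeR called 1 of 10 enzymes, Gpx4, against 13.8% of all genes (6.7% higher and 7.15% lower in Smo-KO livers), and DESeq2 called 2 of 10, Gpx4 and Gpx1, against 12.5%. The share of the enzymes is thus near that of all genes. Without control mouse 1 the edgeR count was 3 (Gpx4, Gpx1 and Sod1), beside 14.9% of all genes in the same fit, and without Smo-KO mouse 1 it was 2 (Gpx4 and Gpx1), beside 17.8%. The log2 fold change was above 0 in 8 of 10 enzymes, with a median of 0.09, beside 49.9% of all genes and a median of -0.000845.

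**Figure D2:**
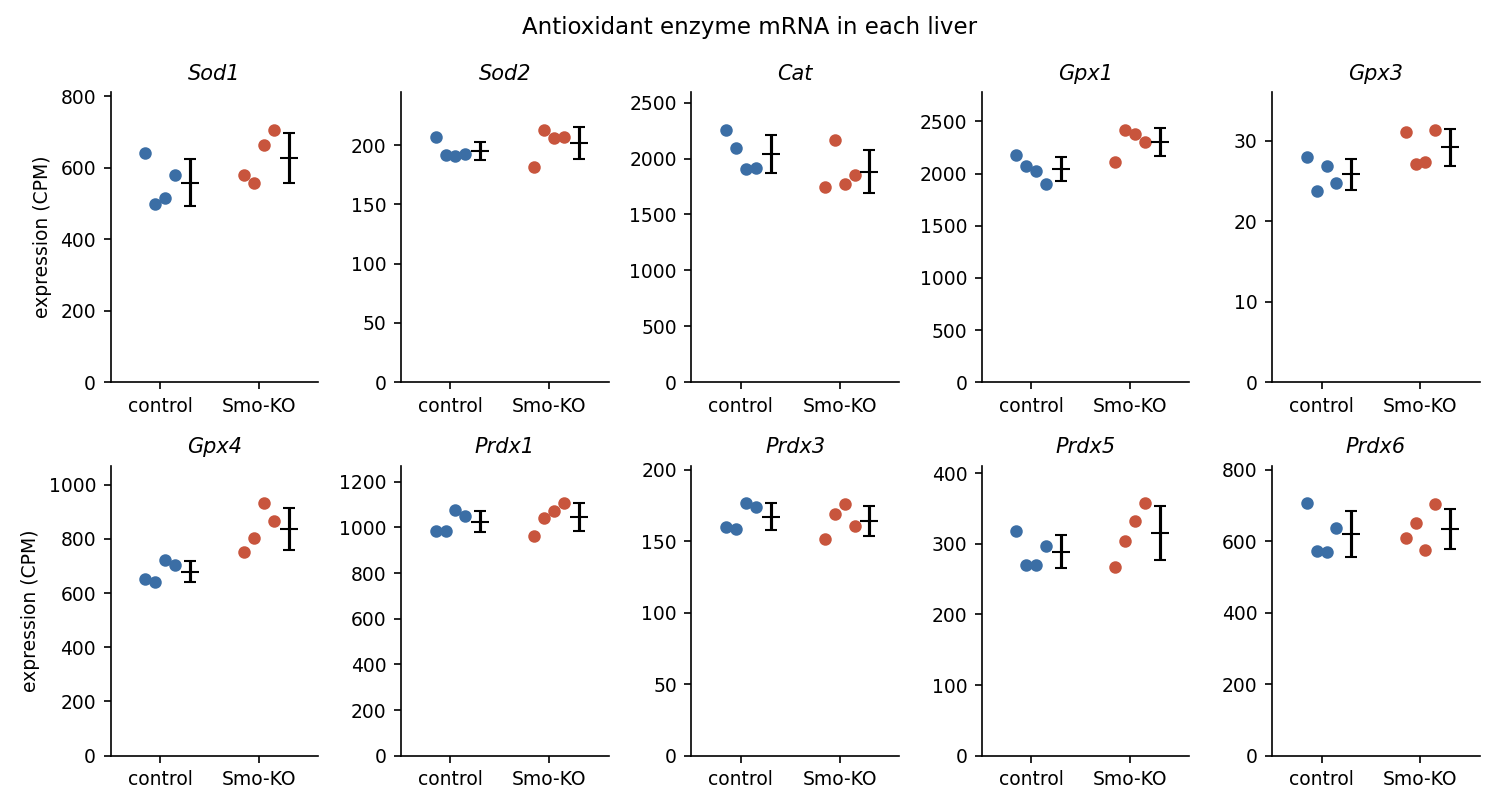
Level of each of the 10 enzymes in CPM after TMM scaling, in every control (blue) and Smo-KO (red) liver, with the mean and SD of each group of 4 in black; each panel has its own axis from 0. The groups are apart in Gpx4 alone of the 10.

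Gpx4 (chr10:80047166-80056439, GRCm38, plus strand), which reduces lipid hydroperoxides within membranes and protects cells from ferroptosis, had the largest log2 fold change of the 10 enzymes, although Gpx1 differed by more in CPM. It was measured at 654, 639, 720 and 704 CPM in control mice 1 to 4 and at 751, 802, 931 and 866 CPM in Smo-KO mice 1 to 4. Every Smo-KO liver was above every control liver, with the lowest of them, mouse 1, at 751 and the highest control, mouse 3, at 720 CPM. Groups that did not overlap were found for 1 of the 10 enzymes and for 7.37% of all genes tested (3.03% higher and 4.34% lower in Smo-KO livers). The group means were 679 ± 38.9 and 838 ± 78.0 CPM (SD, n = 4 each), a 1.23-fold difference (95% interval 1.07 to 1.42). The exact permutation test of the means gave a two-sided p of 0.0286, the smallest that 4 livers against 4 allow. In edgeR's test the log2 difference was 0.30 (standard error 0.09), with an unadjusted p of 0.00632, rank 397 of 12977, and an adjusted p of 0.206. The adjusted p from DESeq2 was 0.0692, and over 15 alternative settings it ran from 0.0692 to 0.452, while the log2 fold change stayed between 0.25 and 0.36.

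Gpx1 (chr9:108338903-108340343, plus strand), which reduces soluble hydrogen peroxide, was measured at 2177, 2068, 2025 and 1896 CPM in control mice 1 to 4 and at 2111, 2418, 2381 and 2300 CPM in Smo-KO mice 1 to 4. Smo-KO mice 2 to 4 were above every control, and Smo-KO mouse 1 was below control mouse 1, so the groups overlapped by that pair. The means were 2041 ± 116 and 2302 ± 137 CPM (SD, n = 4 each), a log2 difference of 0.17 (standard error 0.09, 95% interval -0.02 to 0.36), and the adjusted p was 0.399 in edgeR's test and 0.317 in DESeq2's. The exact permutation test gave a two-sided p of 0.0571. With libraries scaled by their totals alone the groups of Gpx1 did not overlap, and the exact p was 0.0286.

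Gpx3 (chr11:54902453-54910377, plus strand) was a low transcript, with 224 to 301 reads per liver, at which counting error alone gives a coefficient of variation of 6.35%. Its level was 28.0, 23.7, 26.8 and 24.7 CPM in controls 1 to 4 against 31.0, 27.0, 27.3 and 31.3 CPM in Smo-KO mice 1 to 4. Smo-KO mice 1 and 4 were above every control, and Smo-KO mice 2 and 3 lay below control mouse 1. The log2 difference was 0.18 (95% interval -0.04 to 0.39, adjusted p = 0.444 in edgeR's test).

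In each of the 3 glutathione peroxidases 4 of 4 Smo-KO livers were above the control mean CPM. Whether these enzymes differ from the other 7 was not tested. The glutathione peroxidases share their selenocysteine codon with the rest of the selenoproteins, and of 24 genes annotated with such a codon 21 were tested: 13 had a log2 fold change above 0 and 8 below, with a median of 0.07. Outside the 3 glutathione peroxidases, 10 of 18 were above 0 with a median of 0.04. At an unadjusted p under 0.05 in edgeR's test, 2 of these 18 were higher and 1 was lower, beside 6.7% and 7.15% of all genes tested. The higher ones were Dio1, the type 1 iodothyronine deiodinase, at 68.6 ± 18.2 and 101 ± 29.4 CPM (SD, n = 4 each; adjusted p = 0.290) and Selenow, at 170 ± 10.6 and 198 ± 23.6 CPM (adjusted p = 0.342), with overlapping groups in both. With the replicate number as a block, the unadjusted p of Selenow was no longer under 0.05. The lower one was Txnrd1, the cytosolic thioredoxin reductase, described further on. Selenop, the plasma selenium carrier that the liver exports, was measured at 4813 ± 218 and 5135 ± 428 CPM, a log2 difference of 0.09 (adjusted p = 0.695) that ran from 0.05 without Smo-KO mouse 3 to 0.14 without Smo-KO mouse 1. Dio1, Selenow and Selenop were singled out after their values were seen.

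Catalase, the peroxisomal enzyme, had a lower mean in Smo-KO livers. Cat (chr2:103453849-103485160, minus strand) was measured at 2256, 2092, 1902 and 1913 CPM in control mice 1 to 4 and at 1741, 2163, 1776 and 1852 CPM in Smo-KO mice 1 to 4. Smo-KO mice 1, 3 and 4 were below every control, and Smo-KO mouse 2 was above 3 of the 4 controls. The means, 2041 ± 168 and 1883 ± 192 CPM (SD, n = 4 each), gave a log2 difference of -0.12 (standard error 0.10, 95% interval -0.33 to 0.10). The adjusted p was 0.645 in edgeR's test, and the exact permutation test gave a two-sided p of 0.257. With single mice left out the log2 difference ran from -0.19 (without Smo-KO mouse 2, unadjusted p = 0.0788 in edgeR's test) to -0.07 without Smo-KO mouse 1 and -0.06 without control mouse 1 (unadjusted p = 0.522).

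The superoxide dismutases overlapped between the groups. Sod1 (chr16:90220754-90226329, plus strand) was measured at 641, 497, 517 and 579 CPM in control mice 1 to 4 and at 580, 558, 663 and 706 CPM in Smo-KO mice 1 to 4. Smo-KO mice 3 and 4 were above every control, while control mouse 1 was above Smo-KO mice 1 and 2. The log2 difference was 0.17 (95% interval -0.07 to 0.40, adjusted p = 0.521), and with single mice left out it ran from 0.11 without Smo-KO mouse 4 (unadjusted p = 0.383 in edgeR's test) to 0.24 without control mouse 1 (unadjusted p = 0.0420, adjusted p = 0.319). Sod2 (chr17:13006846-13040063, plus strand), the mitochondrial enzyme, was measured at 206, 192, 191 and 192 CPM in control mice 1 to 4 and at 182, 213, 206 and 206 CPM in Smo-KO mice 1 to 4. Control mouse 1 stood apart from 3 controls that lay within 2 CPM of each other, and Smo-KO mouse 1 was the lowest of all 8 livers. The means were 195 ± 7.46 and 202 ± 13.6 CPM (SD, n = 4 each), and the log2 difference was 0.05 (95% interval -0.13 to 0.23, adjusted p = 0.838), which ran from 0.02 without Smo-KO mouse 2 to 0.10 without Smo-KO mouse 1.

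Of the peroxiredoxins, Prdx1, Prdx3 and Prdx6 had nearly equal group means. Prdx1 (chr4:116685544-116700822, plus strand) was measured at 1024 ± 46.2 CPM in control and 1045 ± 61.8 CPM in Smo-KO livers (SD, n = 4 each), and the interval of its fold change ran from 0.899 to 1.16. Prdx3 (chr19:60864051-60874556, minus strand), which works with the mitochondrial thioredoxin, was measured at 167 ± 9.40 and 164 ± 10.4 CPM, with an interval of 0.866 to 1.11. Prdx6 (chr1:161240112-161251219, minus strand), which uses glutathione and also handles phospholipid peroxides, was measured at 621 ± 64.6 and 634 ± 56.1 CPM, with an interval of 0.879 to 1.19. The adjusted p of these 3 was between 0.914 and 0.922. The log2 difference of Prdx1, 0.03, ran from 0.000858 to 0.0731 with single mice left out. The sign of the Prdx3 and Prdx6 differences turned when single mice were left out, so neither has a direction here.

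Prdx5 (chr19:6906697-6910106, minus strand), found in mitochondria, peroxisomes and cytosol, was measured at 319, 271, 271 and 297 CPM in control mice 1 to 4 and at 268, 305, 332 and 357 CPM in Smo-KO mice 1 to 4. Smo-KO mouse 1 was the lowest of the 8 livers, and Smo-KO mice 3 and 4 were above every control. The log2 difference was 0.13 (95% interval -0.10 to 0.35, adjusted p = 0.624), and it was 0.06 without Smo-KO mouse 4 and 0.20 without Smo-KO mouse 1. Of the exon bases of Prdx5, 19.1% (409 bases) overlap Trmt112 on the other strand, which had 351 to 475 reads, and whether strand was used in counting is not given in the sources used here, so reads from that stretch cannot be assigned with certainty. A protein-coding gene that is a copy of Prdx6 by its name, Prdx6b, received 0 to 1 reads per liver. The pseudogenes Gpx4-ps2 and Prdx6-ps2 were not among the counted symbols. How alike the sequences are was not measured.

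**Figure D3:**
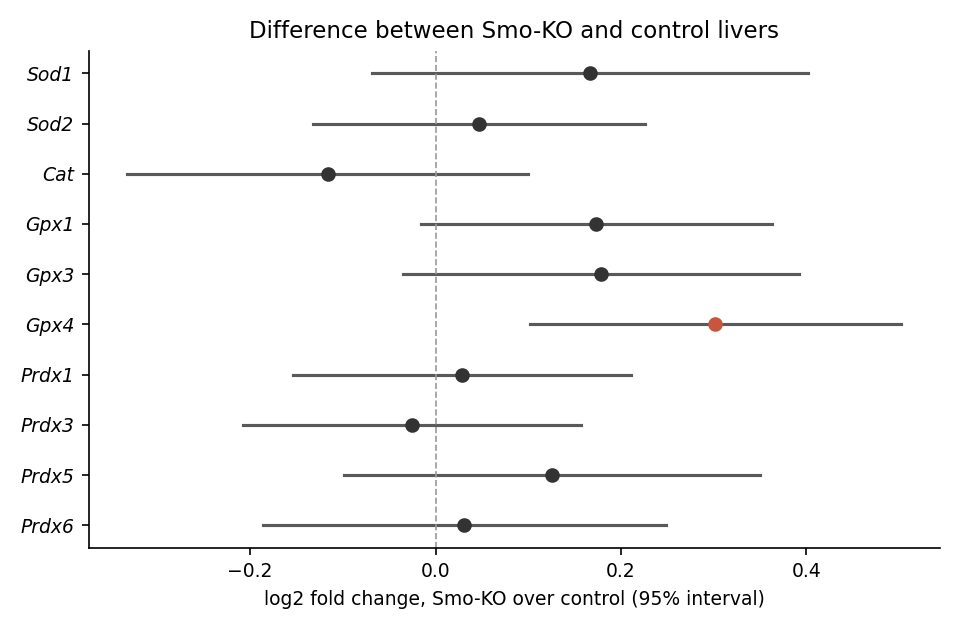
log2 fold change of each enzyme, Smo-KO over control, with its 95% interval from edgeR's quasi-likelihood fit of 4 against 4 livers. The dashed line marks no difference and the red point an enzyme whose groups did not overlap. The interval lies wholly above 0 for Gpx4 (0.10 to 0.50) and includes 0 for the other 9 enzymes.

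For the 9 enzymes other than Gpx4 the 95% intervals of the fold change lay between 0.794 (the lower bound of Cat) and 1.32 (the upper bound of Sod1). The spread between mice of 1 group was small: the coefficient of variation had a median over the 10 enzymes of 6.66% among controls and 8.39% among Smo-KO livers, where all genes tested had 12.1% in both. In control livers 10 of 10 enzymes, and in Smo-KO livers 9 of 10, varied less than the median gene, and the highest value was 12.2%. The median over all genes includes genes with few reads, whose counting error is larger, and 9 of the 10 enzymes had at least 1408 reads in every liver.

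Single livers held several of the extreme values. Smo-KO mouse 1 had the lowest level of all 8 livers for 5 enzymes (Sod2, Cat, Prdx1, Prdx3 and Prdx5). It was also the Smo-KO mouse with the most Smo transcript, and a link between the Smo transcript and these enzymes was not tested. Smo-KO mouse 4 had the highest level for 4 (Sod1, Gpx3, Prdx1 and Prdx5), and Smo-KO mouse 2 for Sod2 and Gpx1. Control mouse 1 was the highest for Cat and Prdx6 and lay above the control mean for 7 enzymes, whereas control mouse 2 was the lowest for Sod1, Gpx3 and Gpx4 and lay above that mean for 2. The Smo-KO mice 1 to 4 lay above the control mean for 4, 9, 8 and 8 enzymes.

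**Figure D4:**
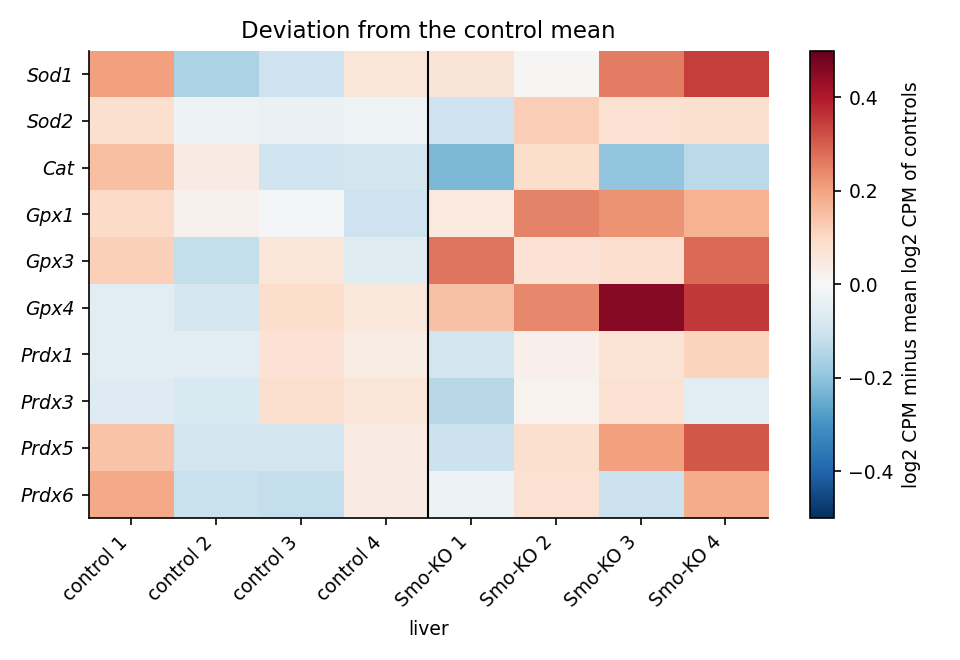
Deviation of each enzyme in each liver from the mean of the 4 controls, in log2 CPM, blue lower and red higher. The row of Gpx4 is red in all 4 Smo-KO livers, the row of Cat is blue in 3 of them, and the column of Smo-KO mouse 1 holds blue cells in rows where Smo-KO mice 2 to 4 are red, such as Sod2 and Prdx5.

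Genes that work beside the 10 enzymes were examined through 6 lists, 76 genes in all, of which 71 passed the filter. None of them reached an adjusted p under 0.05 in edgeR's test. At an unadjusted p under 0.05, 6 were higher and 11 were lower in Smo-KO livers, 17 of 71 beside 13.8% of all genes. By direction the shares of all genes were 6.7% higher and 7.15% lower. The groups did not overlap in 6 of the 71, beside 7.37% of all genes. These shares stand beside the counts of every list and marker set below. DESeq2 gave an adjusted p under 0.05 for 2 of the 71, among them Txnrd1. The median log2 fold change of the 71 was -0.04.

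Of 9 other enzymes of the same families, 7 were tested, and 1 had an unadjusted p under 0.05. This was Ccs, the copper chaperone that loads Sod1, with 205, 149, 149 and 164 CPM in controls 1 to 4 and with 178, 208, 223 and 244 CPM in Smo-KO mice 1 to 4. Smo-KO mice 2 to 4 were above every control, and control mouse 1 was above Smo-KO mouse 1. The log2 difference was 0.35 (standard error 0.12, adjusted p = 0.247). The extracellular dismutase Sod3, at 89.8 ± 6.09 and 76.8 ± 20.99 CPM, and the cytosolic peroxiredoxin Prdx2, at 166 ± 15.9 and 190 ± 16.0 CPM (SD, n = 4 each), had adjusted p-values of 0.562 and 0.397; both were singled out after their values were seen. The log2 difference of Sod3, -0.22, ran from -0.38 without Smo-KO mouse 1 (unadjusted p = 0.0202 in edgeR's test) to -0.08 without Smo-KO mouse 2. Gpx5 and Gpx6 were under the filter, Gpx6 being the higher with 2 to 13 reads.

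Peroxiredoxins and glutathione peroxidases need to be recharged, and the genes of that supply were examined next. In the thioredoxin and glutaredoxin system, 7 of 14 genes tested were below 0 and 7 above (median -0.02), and the 3 with an unadjusted p under 0.05 were all lower. Txnrd1, which returns thioredoxin to its reduced form, was measured at 354, 352, 366 and 354 CPM in control mice 1 to 4 and at 315, 285, 257 and 264 CPM in Smo-KO mice 1 to 4. All 4 Smo-KO livers were below all 4 controls, and Smo-KO mouse 1 was nearest to them. The log2 difference was -0.35 (standard error 0.09). Its adjusted p was 0.152 in edgeR's test and 0.0252 in DESeq2's, the lowest of a range that reached 0.331 over the alternatives.
Srxn1, the sulfiredoxin that rescues overoxidized peroxiredoxins, was measured at 585 ± 89.9 and 442 ± 82.7 CPM (SD, n = 4 each; log2 difference -0.41, adjusted p = 0.242), and Sesn2 at 19.5 ± 3.61 and 14.4 ± 4.37 CPM (log2 difference -0.43, adjusted p = 0.356), with an unadjusted p under 0.05 in 8 of 15 alternatives for Sesn2. The groups of both overlapped. Glrx3 was under the filter.

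In glutathione synthesis and reduction, 7 of 9 genes tested were below 0 (median -0.15), and 3 were lower at an unadjusted p under 0.05. Gsr, the reductase that regenerates glutathione for the glutathione peroxidases, was measured at 206, 208, 221 and 259 CPM in control mice 1 to 4 and at 195, 179, 167 and 167 CPM in Smo-KO mice 1 to 4. The groups did not overlap, and the log2 difference was -0.34 (standard error 0.10, adjusted p = 0.183). Gclc, the catalytic subunit of the enzyme that limits glutathione synthesis, was measured at 525 ± 56.8 and 411 ± 46.6 CPM (SD, n = 4 each; log2 difference -0.35, adjusted p = 0.211), and Chac1, which degrades glutathione, at 7.01 ± 2.88 and 4.35 ± 0.344 CPM (log2 difference -0.68, adjusted p = 0.297). Ggt1 was under the filter.

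In the supply of NADPH, on which both reductases draw, 9 of 12 genes were below 0 (median -0.09). G6pdx, the first enzyme of the pentose phosphate pathway, was measured at 25.1 ± 2.01 and 20.04 ± 2.98 CPM (SD, n = 4 each) with groups that did not overlap (log2 difference -0.32, adjusted p = 0.275), and Tkt at 172 ± 12.7 and 148 ± 17.6 CPM (log2 difference -0.22, adjusted p = 0.360), with an unadjusted p under 0.05 in 6 of 15 alternatives for Tkt. Of the 10 genes of selenoprotein synthesis and selenium transport, 7 were below 0 (median -0.05). Scly, which recovers selenium from selenocysteine, was the 1 with an unadjusted p under 0.05, at 146 ± 14.4 and 114 ± 17.6 CPM without overlap (log2 difference -0.36, adjusted p = 0.235).

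Enzymes that produce superoxide or hydrogen peroxide split about evenly: 10 of the 19 tested were above 0 and 9 below (median 0.01), and 5 were higher and 2 lower at an unadjusted p under 0.05. Xdh, the xanthine dehydrogenase and oxidase, was lower without overlap, at 230 ± 18.7 and 190 ± 14.6 CPM (SD, n = 4 each; log2 difference -0.28, adjusted p = 0.236). Ero1lb was measured at 68.8 ± 4.82 and 57.0 ± 9.21 CPM with overlapping groups (log2 difference -0.27, adjusted p = 0.327). The NADPH oxidase Nox4 was measured at 33.8 ± 2.58 and 42.2 ± 8.11 CPM (log2 difference 0.32, adjusted p = 0.308). Maoa and Cyba, named after their values were seen, were also among the higher genes, and Dao was under the filter.

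**Figure D5:**
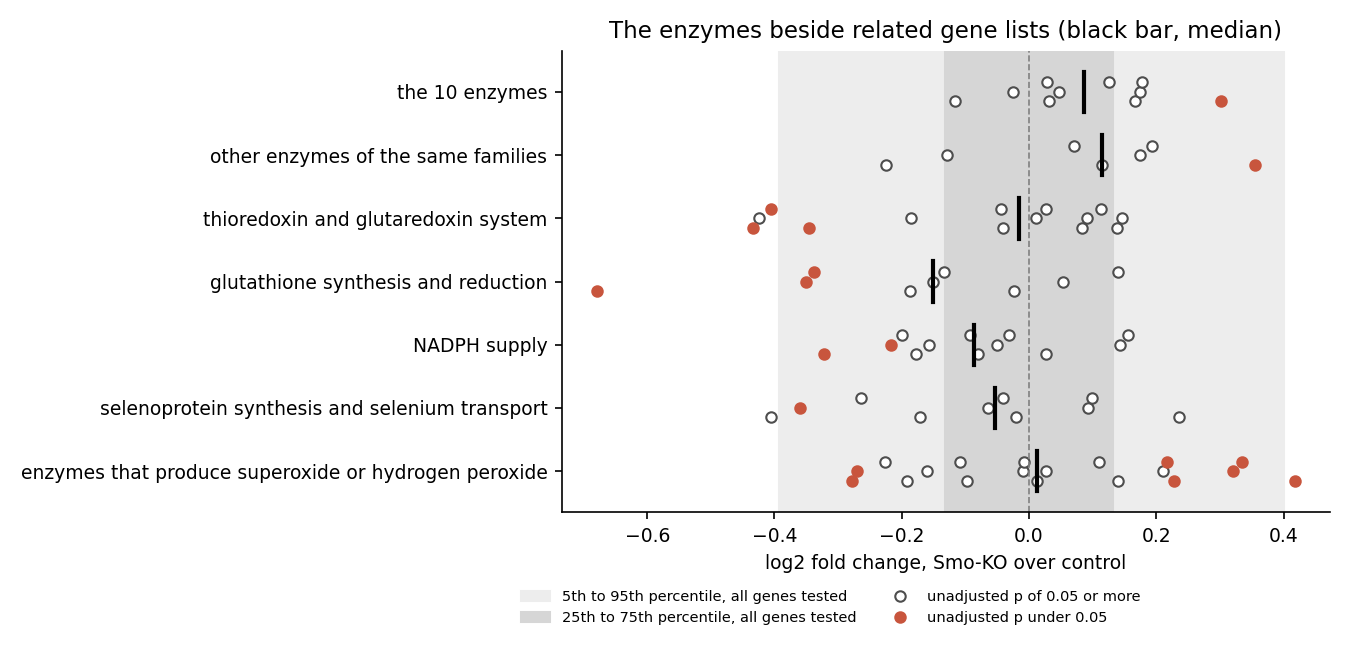
log2 fold change, Smo-KO over control, of the 10 enzymes and of the tested genes of the 6 related lists, 1 circle per gene, filled red where the unadjusted p was under 0.05, with the median as a black bar and the middle 50% and 90% of all genes tested in grey. The medians lie between -0.15 and 0.11, and the red circles of the thioredoxin, glutathione, NADPH and selenium lists are all below 0.

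Of the summed cell markers, those of T and NK lymphocytes alone separated the groups. The summed level of 6 T and NK lymphocyte markers was 50.8, 54.2, 43.9 and 60.2 CPM in controls 1 to 4 against 23.3, 19.9, 33.2 and 34.3 CPM in Smo-KO mice 1 to 4, lower in every Smo-KO liver. Of the markers tested, 5 of 5 had an unadjusted p under 0.05 in edgeR's test, beside 13.8% of all genes. By adjusted p, 0 of these 5 were under 0.05 in edgeR's test and 4 in DESeq2's. The most abundant of them, Nkg7, averaged 14.5 and 7.59 CPM, and none of the 6 was without a read. Among 9 macrophage and Kupffer cell markers 1 had an unadjusted p under 0.05: Trem2, named after its values were seen, at 33.6 ± 2.94 and 56.5 ± 9.70 CPM (SD, n = 4 each) without overlap. Its log2 difference was 0.75, with an adjusted p of 0.0957 by edgeR and 0.000156 by DESeq2, in a range up to 0.210 over the alternatives, and it also passed 0.05 without a filter (0.0182), with the replicate block (0.0457) and without Smo-KO mouse 1 (0.0200). The sum of the 9 markers, led by Cd5l, was 1589 and 1590 CPM. These 10 enzymes are also expressed outside hepatocytes, and the part of these cells in their differences was not tested.

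Promoter sequences of the 10 enzymes were searched for the core of the antioxidant response element, spelled TGACNNNGC, on both strands of the 250 bases before and 50 after each start (RefSeq, GRCm38.p6). It was found in 2 of 12 promoters of 9 enzymes, 16.7%, beside 12.4% of all 32851 promoters of that length; Prdx6 had no entry. The matches are shown because they bear on which of the enzymes hold the letters at all, with the motif in capitals as read on the plus strand, where it appears as its reverse complement.
Prdx1, 133 bases before the start, chr4:116685456-116685484: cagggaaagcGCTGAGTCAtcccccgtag
Sod1, 56 bases before the start, chr16:90220696-90220724: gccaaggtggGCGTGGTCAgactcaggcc
The match in Prdx1 also holds the AP-1 motif TGACTCA, read on the minus strand. The log2 differences of these 2 genes were 0.03 and 0.17, and Gpx4 had no match in its window.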

How the data were processed

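For each liver the authors deposited raw read counts per gene symbol, not normalized. The submitters' processing notes name fastp, STAR 2.7.5, featureCounts 2.0.1 and GRCm38 without saying what each did, while the deposited lists end with entries of the htseq-count form, so the counter is not certain; the annotation and the strand setting are not given in the sources used here. Reads on no gene (8.33% of the total in control and 9.23% in Smo-KO livers) or on more than 1 gene (2.55% and 2.51%) were left out. The test was the quasi-likelihood test of edgeR 4.0.16 in R 4.3.3 (glmQLFit and glmQLFTest) with no term but the group, after TMM scaling and filterByExpr, which left 12977 genes for the Benjamini-Hochberg adjustment. The standard error is that implied by the F statistic. Exact permutation tests were two-sided, over 70 assignments of livers. Libraries of 1 group differed beyond sampling noise (chi-square per degree of freedom 8.17 to 18.5), so none was a copy. The p-values set the difference between the groups against the spread between these livers. The 95% intervals of fold changes come from the edgeR fit and include the spread between livers, whereas the CPM of 3 reads and the counting variation cover counting error only. DESeq2 1.42.0 and limma 3.58.1 served as alternatives, with other size factors and filters, a replicate block and each mouse left out. Lengths and coordinates are from GENCODE M21.

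The 10 enzymes and the lists were chosen with earlier results of these data known. Named were Smo, the 10 enzymes and, per list, up to 5 genes with an unadjusted p under 0.05, apart from those said to be chosen after values were seen. The comparison of gene lengths by the basic coding transcript was added after seeing the data. Results of 2 single genes of the lists are not reported here; all counts include them.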

Additional observations from a re-analysis of the deposited data

Results flagged for a closer look

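Sod2 in control mouse 1, at 206 CPM, lay far from the other 3 control livers, at 191 to 192 CPM, for a gap of 0.923 of the range of the group, above the critical value of Dixon's test for 4 samples. In all, 22 groups of 4 livers were examined and 1 held such a sample, where chance gives about 1.1 (1 in 20). Without that mouse the log2 difference of Sod2 was 0.07, beside 0.05 with it and a range of 0.02 to 0.10 over all mice left out in turn.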

How the results depend on the processing

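Over 15 alternatives for each of the 10 enzymes, 150 in all, 0 gave an adjusted p under 0.05 and 5 turned the sign, all of them with a mouse left out. These were Prdx3 without control mouse 3 or Smo-KO mouse 1 (log2 difference -0.0603 to 0.0170 over the mice left out) and Prdx6 without control mouse 2, control mouse 3 or Smo-KO mouse 4 (-0.0224 to 0.0983). Enzymes with an unadjusted p under 0.05 numbered 1 in the edgeR test, 2 with library totals alone, 2 in DESeq2 and 1 to 3 with a mouse left out, beside 13.8%, 13.7%, 12.5% and 9.5% to 17.8% of all genes. Exact tests found 1 enzyme (Gpx4) at a p of 0.0286. That p is reached only where the groups do not overlap, as in 7.37% of all genes. With library totals alone they found 2, and the share of all genes was not counted for that scaling. Leaving out a mouse gives no value for that count, since 4 livers against 3 cannot go below 0.0571.

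Genes with an adjusted p under 0.05 numbered 0 in the edgeR test (1797 at an unadjusted p under 0.05), 61 without a filter, 163 in DESeq2, and 0 to 78 with a mouse left out (78 without Smo-KO mouse 1, 5 without control mouse 1, 4 without Smo-KO mouse 3). Smo passed the threshold without a filter (-0.877, adjusted p = 0.0385), in DESeq2 (-0.873, 0.00613) and without Smo-KO mouse 1 (adjusted p = 0.0266), and its log2 difference ran from -0.997 to -0.811 over the mice left out. Of the other genes named for an unadjusted p under 0.05, Txnrd1, Srxn1, Gsr, Gclc, Scly and Xdh kept it in 15 of 15 alternatives, Ccs in 14, G6pdx in 13, Nox4 in 12, Chac1, Ero1lb and Dio1 in 10, Selenow in 9, Sesn2 in 8 and Tkt in 6.

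Mice of the 2 groups share replicate numbers. The labels do not tie these numbers to a litter, batch or day, so they were not taken as pairs. The deviations of same-numbered livers correlated by 0.104, 0.187, 0.0611 and 0.113. With the replicate number as a block, 8 genes had an adjusted p under 0.05, 0 of them among the 10 enzymes. In that fit 1 enzyme had an unadjusted p under 0.05, beside 16.3% of all genes. Among the Smo-KO livers, control livers 2, 3 and 4 correlated best with that of their own number (best other number 0.133, 0.0039 and 0.0133). Control liver 1 correlated best with another (0.157). The best match of each Smo-KO liver among the controls was not examined. Whether the numbers mark pairs was not tested, and the design does not give it.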

Other observations

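Markers of the remaining liver cells were summed in the same livers as the 10 enzymes. The summed level of 8 stellate cell and fibroblast markers, led by Col3a1, was 1111 ± 89.6 CPM in control and 1046 ± 148 CPM in Smo-KO livers (SD, n = 4 each), and 1 of 8, Col1a1, had an unadjusted p under 0.05 in edgeR's test (log2 difference -0.36, adjusted p = 0.248). The sum of 6 sinusoidal endothelial cell markers was 188 ± 18.7 and 164 ± 46.7 CPM; 5 of 6 had a log2 difference below 0 (median -0.26), 1 of them, Pecam1, with an unadjusted p under 0.05 (-0.50, adjusted p = 0.292). Col1a1 and Pecam1 were named after their values were seen. The sum was 149 ± 41.8 and 177 ± 46.0 CPM for 6 cholangiocyte markers. The 5 neutrophil markers summed to 23.1 ± 5.81 and 24.9 ± 2.92 CPM. Of 5 erythroid markers, Alas2 alone had reads (111 ± 16.7 and 107 ± 16.6 CPM), and the 4 globin genes were listed at 0 in every liver. Whether globin reads were removed before counting is not given in the sources used here. The groups overlapped in each of these sums.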
